A study of Saccharomyces cerevisiae with 18 samples.

Results

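TFIID and SAGA are the coactivator complexes that bring TBP, the TATA-binding protein, to the promoters of genes transcribed by RNA polymerase II. The data set out here ask which yeast genes kept less newly synthesized RNA (nsRNA), relative to the median gene, when TFIID was hit, through loss of its subunit Taf13. They also ask which genes kept less, on the same relative scale, when SAGA was hit, through loss of its core subunit Spt20. In both cases the cells lost Med16 at the same time. The comparison used 12 of the 18 libraries of the series, all of those from the Med16/Taf13-AID and Med16/Spt20-AID strains, and 5571 genes of the 6692 identifiers in the count files had enough reads to be tested.

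The 4 groups were Med16/Taf13-AID cells given 3-IAA, Med16/Taf13-AID cells given DMSO, Med16/Spt20-AID cells given 3-IAA and Med16/Spt20-AID cells given DMSO, with 3 replicate libraries in each. Both strains were W303 yeast grown in YPD at 30 °C, and each carried Med16-3V5-IAA7, with Taf13-3xHA-IAA7 in one strain and Spt20-3xHA-IAA7 in the other. IAA7 is a degron, so the auxin 3-IAA (0.5 mM, 30 minutes) sends the tagged proteins for destruction, while the DMSO cultures carried the same tags and got only the solvent. RNA made during 6 minutes of labeling with 4-thiouracil was purified and sequenced. Each strain stands for 1 construct, no library used here depleted Med16 alone, and the tags act on protein, so transcript levels of the tagged genes do not check the depletion. The 6 libraries of another strain, Spt20-AID, which keeps Med16, served as separate samples in which to look at Spt20 loss again.

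TFIID holds TBP and a set of TAF proteins, of which Taf13 is found in TFIID and not in SAGA. SAGA holds a TBP-handling part (Spt3 and Spt8), a histone acetyltransferase (Gcn5) and a deubiquitinase (Ubp8), and Spt20 is needed for its assembly. Med16, encoded by SIN4 in the annotation, joins the tail of Mediator, which activators bind, to the rest of the complex. TATA-containing, strongly regulated genes are those classically described as SAGA-dependent in budding yeast.

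For each gene the change was the log2 ratio of 3-IAA to DMSO libraries within a strain, set so that the median gene of that strain stood at 0. The interaction is the change in Med16/Taf13-AID minus the change in Med16/Spt20-AID. A gene with a positive interaction kept relatively more nsRNA after Taf13 loss than after Spt20 loss and is said here to lean on SAGA, and one with a negative interaction leans on TFIID. The terms name the sign of that difference only. All levels are normalized sense counts, that is reads divided by a library size factor, and are therefore also relative to the median gene. Calls are at a Benjamini-Hochberg adjusted p under 0.05 from edgeR's quasi-likelihood test over all 5571 genes.

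The libraries differed in depth, with 874975 to 1029147 sense reads in Med16/Taf13-AID 3-IAA, 1947787 to 2366418 in Med16/Taf13-AID DMSO, 4448568 to 4877296 in Med16/Spt20-AID 3-IAA and 4209319 to 6189719 in Med16/Spt20-AID DMSO. The reads on the opposite strand of genes made up 8.208 to 8.459% in Med16/Taf13-AID 3-IAA libraries, against 5.83 to 5.955% in Med16/Taf13-AID DMSO libraries. The cause was not tested. With both strands counted, 91% of the higher and 79.2% of the lower interactions described below were still called, and 2 of the lower ones were called higher. The names given to the libraries carry another prefix for Med16/Taf13-AID than for Med16/Spt20-AID and Spt20-AID. The sample titles do not state what the prefix marks. Strain and any batch that goes with the prefix cannot be told apart. Each change is a difference within a strain and a prefix.

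A common shift was removed by the centering. Size factors of the study's Schizosaccharomyces pombe spike-in were recovered indirectly, from its mean normalized counts and not from spike-in reads. Against these factors, the median gene fell by 1.682 on the log2 scale in Med16/Taf13-AID, and moved by +0.311 in Med16/Spt20-AID. The shift was seen in every replicate pair, at -1.574, -1.844 and -1.588 in Med16/Taf13-AID and at 0.231, 0.361 and 0.308 in Med16/Spt20-AID. With no centering on those factors, 5249 genes had a lower and 35 a higher interaction. A gene that rose in Med16/Taf13-AID in the account that follows therefore rose relative to the median gene. When the spike-in set the scale, 5480 of all 5571 tested genes were called lower in Med16/Taf13-AID. Of the genes leaning on SAGA, 1203 of 1252 were called lower there. On that scale their median change was -1.336 in Med16/Taf13-AID and -0.216 in Med16/Spt20-AID. With no centering, 966 of the 1252 were called with a lower interaction, the opposite sign, against 5249 of all 5571 tested genes.

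The interaction was higher in 1252 genes (22.5% of those tested) and lower in 653 (11.7%). The split depends on the centering: TMM scaling with no centering, which moved the median interaction to -0.066, gave 1090 higher and 909 lower. A difference of at least 2-fold was seen for 543 of the genes leaning on SAGA and for 118 of those leaning on TFIID. Within the strains, 937 genes (16.8%) rose and 734 (13.2%) fell in Med16/Taf13-AID, and 593 (10.6%) rose and 1294 (23.2%) fell in Med16/Spt20-AID. With same-numbered cultures of a strain as a block, 1031 genes rose in Med16/Spt20-AID.

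The genes leaning on SAGA were made up of a few patterns. In 433 (34.6%) nsRNA rose in Med16/Taf13-AID and fell in Med16/Spt20-AID. In 432 (34.5%) it fell in Med16/Spt20-AID with no call in Med16/Taf13-AID, and in 292 (23.3%) it rose in Med16/Taf13-AID with no call in Med16/Spt20-AID. Their median change was 0.35 in Med16/Taf13-AID and -0.53 in Med16/Spt20-AID.

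The genes leaning on TFIID were carried mostly by the Taf13 arm. In 350 of the 653 (53.6%) nsRNA fell in Med16/Taf13-AID with no call in Med16/Spt20-AID, in 122 (18.7%) it rose in Med16/Spt20-AID alone, and in 70 (10.7%) both held. Their median change was -0.49 in Med16/Taf13-AID and 0.15 in Med16/Spt20-AID. The interquartile range of the interaction ran from -0.87 to -0.47 here, against 0.50 to 1.48 for the genes leaning on SAGA.

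**Figure D1:**
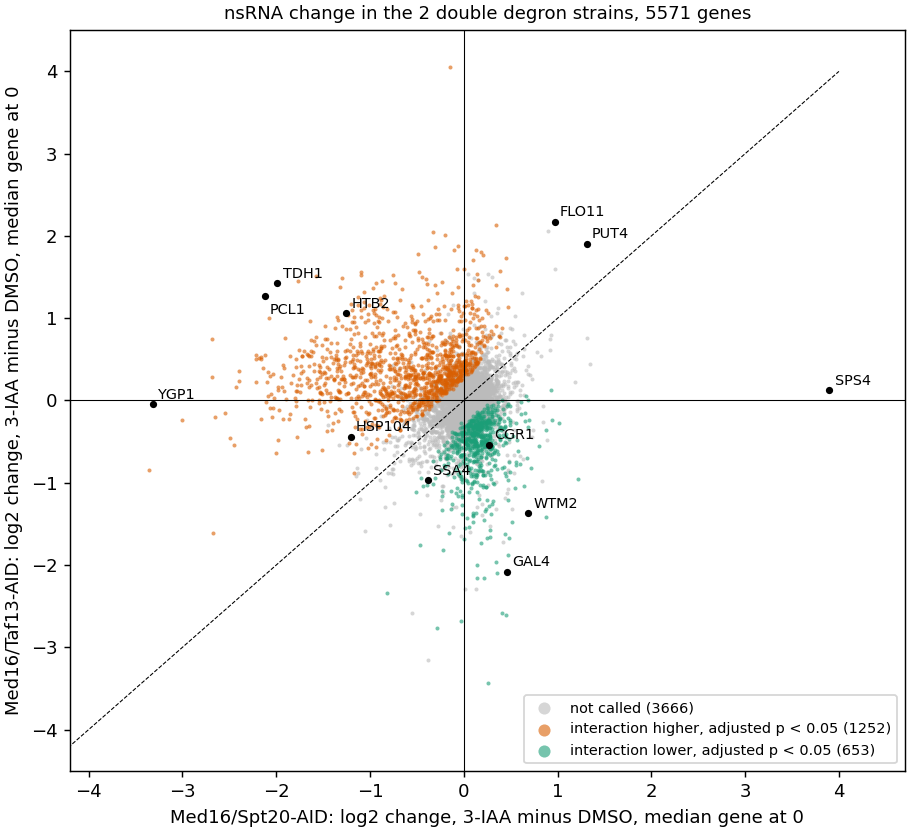
Each point is 1 of 5571 genes, with its log2 change (3-IAA minus DMSO, median gene at 0) in Med16/Taf13-AID on the vertical axis and in Med16/Spt20-AID on the horizontal axis; 1 gene lies outside the axes. The dashed line marks equal changes: the 1252 orange genes lie above it, many with a fall on the Spt20 axis, and the 653 green genes lie below it.

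Promoters are shown for the genes with the largest differences, because the share of promoters with a TATA element differed with the interaction. They are given from 250 bases before to 50 bases after the gene start, from RefSeq (assembly R64), on the strand of the gene, for the 3 nuclear genes with the largest positive and the 3 with the largest negative interaction among the genes chosen by the rule for naming. Capitals mark a TATA element, any of TATAAAAA, TATAAAAG, TATAAATA, TATAAATG, TATATAAA, TATATAAG, TATATATA and TATATATG on either strand, with overlapping matches joined.
TDH1 (chrX:338021-338320, plus strand): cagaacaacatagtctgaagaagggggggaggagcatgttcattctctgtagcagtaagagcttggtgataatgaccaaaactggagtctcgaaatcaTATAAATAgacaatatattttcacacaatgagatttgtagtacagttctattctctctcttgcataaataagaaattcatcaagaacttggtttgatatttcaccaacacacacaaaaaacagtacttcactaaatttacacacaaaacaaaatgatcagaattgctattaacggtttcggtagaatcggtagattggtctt
PCL1 (chrXIV:87647-87946, plus strand): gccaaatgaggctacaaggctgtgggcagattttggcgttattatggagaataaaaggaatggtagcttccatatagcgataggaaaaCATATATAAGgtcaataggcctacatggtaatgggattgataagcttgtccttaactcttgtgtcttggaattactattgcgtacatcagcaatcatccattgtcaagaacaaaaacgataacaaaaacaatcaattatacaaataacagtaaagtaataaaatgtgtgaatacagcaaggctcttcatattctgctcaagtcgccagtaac
YGP1 (chrXIV:336295-336594, plus strand): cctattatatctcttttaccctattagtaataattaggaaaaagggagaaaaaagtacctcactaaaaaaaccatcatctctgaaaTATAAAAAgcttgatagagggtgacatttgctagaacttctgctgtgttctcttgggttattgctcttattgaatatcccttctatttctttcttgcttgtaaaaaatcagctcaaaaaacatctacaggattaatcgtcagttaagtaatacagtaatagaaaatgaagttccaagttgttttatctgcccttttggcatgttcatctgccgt
SPS4 (chrXV:902825-903124, minus strand): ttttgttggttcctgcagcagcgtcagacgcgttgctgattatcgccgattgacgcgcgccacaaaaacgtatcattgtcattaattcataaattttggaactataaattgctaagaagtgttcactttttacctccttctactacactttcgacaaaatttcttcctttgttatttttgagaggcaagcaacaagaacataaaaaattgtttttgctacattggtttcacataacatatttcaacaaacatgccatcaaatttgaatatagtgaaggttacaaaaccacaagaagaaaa
TMN2 (chrIV:670985-671284, minus strand): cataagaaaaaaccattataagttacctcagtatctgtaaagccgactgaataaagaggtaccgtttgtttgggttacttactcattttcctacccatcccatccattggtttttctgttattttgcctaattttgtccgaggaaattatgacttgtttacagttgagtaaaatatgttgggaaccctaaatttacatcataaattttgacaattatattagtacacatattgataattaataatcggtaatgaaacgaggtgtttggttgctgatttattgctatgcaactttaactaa
GAL4 (chrXVI:82307-82606, minus strand): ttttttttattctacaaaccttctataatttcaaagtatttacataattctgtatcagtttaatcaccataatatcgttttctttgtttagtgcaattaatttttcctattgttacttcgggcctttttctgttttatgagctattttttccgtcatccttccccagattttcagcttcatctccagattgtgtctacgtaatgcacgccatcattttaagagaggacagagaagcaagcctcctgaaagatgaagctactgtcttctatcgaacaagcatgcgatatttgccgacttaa
The first matches of TDH1, PCL1 and YGP1 began 152, 162 and 164 bases before the gene start, and PCL1 held 2 overlapping ones. No match lay in the windows of SPS4, TMN2 and GAL4, which says only that these letters are absent there. Of the other nuclear genes named by the rule, PRM4, YLR297W and TOS8 at the SAGA end held a match and RSB1, NRG1 and YRO2 held none, and at the TFIID end DBP1 held one while GMC1, MIP6, ATG17, IME1, WTM2 and CAT8 held none.

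Over all tested genes with a promoter window, 37.0% of 5473 windows held a TATA element. The share was 55.2% (680 of 1233) for genes leaning on SAGA, 30.2% (197 of 652) for genes leaning on TFIID and 32.0% (1149 of 3588) for genes with no call. Across deciles of the interaction the share stayed between 27.1 and 34.3% in the 8 lower deciles, and was 53.6% and 66.1% in the 2 highest. So the rise was at the SAGA end alone, with no mirror image at the TFIID end among these deciles. Genes leaning on SAGA were also more highly expressed, with a median length-scaled level of 152 (reads per base of gene, on a common total) in the DMSO libraries of Spt20-AID, against 68.9 for those leaning on TFIID and 87.5 for all tested genes. In 3 equal bins of that level, low, middle and high, the TATA share of genes leaning on SAGA was 52.3%, 47.1% and 59.8%, and that of genes with no call was 39.7%, 29.7% and 25.3%. Gene length differed little, with medians of 1351 bases for genes leaning on SAGA, 1296 for those leaning on TFIID and 1263 for all. Genes within 30 kb of a chromosome end made up 6.46% of those leaning on SAGA, 3.07% of those leaning on TFIID and 4.69% of all.

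**Figure D2:**
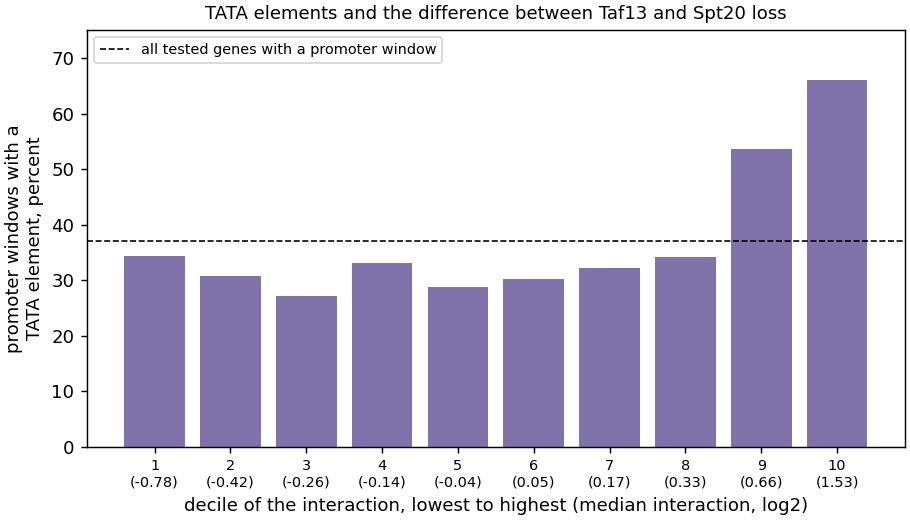
The bars give the percent of promoter windows (250 bases before to 50 after the gene start) that held a TATA element in each decile of 5473 genes ordered by interaction, with the median interaction of the decile below its number; the dashed line is the share in all of them, 37.0%. Of the 10 bars only the 2 at the right, 53.6 and 66.1%, stand above the line.

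As background for all list counts that follow, 22.5% of all tested genes leaned on SAGA and 11.7% on TFIID. Glycolytic and fermentation genes leaned on SAGA more often than any other of the 38 function lists examined, in 29 of 32 tested members with none leaning on TFIID. Their median change was 0.90 in Med16/Taf13-AID and -0.88 in Med16/Spt20-AID, so the list rose in one strain (25 members called) and fell in the other (27 called). TDH1, which encodes a glyceraldehyde-3-phosphate dehydrogenase, had the largest interaction of a nuclear gene chosen by the naming rule. It had 4035, 4651 and 4368 normalized counts in Med16/Taf13-AID 3-IAA libraries, against 1225, 2166 and 1457 in Med16/Taf13-AID DMSO libraries. It had 429, 382 and 411 in Med16/Spt20-AID 3-IAA libraries, against 1481, 1461 and 1899 in Med16/Spt20-AID DMSO libraries. TDH1 thus moved in opposite directions with no overlap between treated and control libraries in either strain, and its interaction was 3.41 ± 0.17 (SE, adjusted p = 2.16e-17). Its paralogs, whose reads can be shared in part where sequence is near identical, had interactions of 2.11 ± 0.12 (TDH2) and 1.38 ± 0.12 (TDH3). GPD1, the glycerol-3-phosphate dehydrogenase of osmotic stress, had a change of 0.24 in Med16/Taf13-AID and -2.40 in Med16/Spt20-AID, and the hexokinase gene HXK1 had -0.20 (not called) and -2.66. The mean DMSO level of HXK1 was 331 in Med16/Taf13-AID and 939.7 in Med16/Spt20-AID. ADH1, the main alcohol dehydrogenase, and the enolase genes ENO1 and ENO2 had interactions of 1.98, 2.13 and 1.54.

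Histone genes behaved in the same way. All 8 genes of the core histones H2A, H2B, H3 and H4 were called higher, with the linker histone gene making 9 of 11 tested, and the list had a median change of 0.77 in Med16/Taf13-AID and -0.92 in Med16/Spt20-AID. HTB2, an H2B gene, had 1338, 1370 and 1325 normalized counts in Med16/Taf13-AID 3-IAA libraries, against 651, 655 and 626 in Med16/Taf13-AID DMSO libraries. It had 259, 235 and 267 in Med16/Spt20-AID 3-IAA libraries, against 616, 553 and 643 in Med16/Spt20-AID DMSO libraries. The DMSO libraries of the 2 strains overlapped for HTB2, while the treated ones stood on either side of them. The H2A genes HTA2 and HTA1 had interactions of 2.20 ± 0.19 and 1.83 ± 0.13. HTZ1, which encodes the H2A variant put into promoter nucleosomes, had an interaction of -0.08 ± 0.17 (adjusted p = 0.764). 

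Methionine and sulfur genes leaned on SAGA in 28 of 35 members and on TFIID in none (median interaction 1.38). MET6, the methionine synthase gene, had 4746, 6428 and 6136 normalized counts in Med16/Taf13-AID 3-IAA libraries, against 2708, 3241 and 2603 in Med16/Taf13-AID DMSO libraries. It had 1058, 1168 and 979.7 in Med16/Spt20-AID 3-IAA libraries, against 2445, 2496 and 2300.0 in Med16/Spt20-AID DMSO libraries. Like TDH1, MET6 rose in the first strain and fell in the second. The ATP sulfurylase gene MET3, the sulfate permease gene SUL2 and the S-adenosylmethionine synthetase gene SAM2 had interactions of 2.35, 2.70 and 1.98.

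Amino acid permease genes leaned on SAGA in 22 of 28 and on TFIID in 1. Among them, DIP5 (acidic amino acids) had an interaction of 2.37, GAP1 (the general permease) 2.16, GNP1 and AGP1 (broad specificity) 1.94 each. PUT4, the proline permease gene, rose in both strains, by 1.90 ± 0.11 in Med16/Taf13-AID and by 1.31 ± 0.08 in Med16/Spt20-AID, while its change was -1.06 in Spt20-AID cells, which keep Med16. Biosynthetic genes under Gcn4, the activator of amino acid synthesis, were more mixed: 35 of 68 leaned on SAGA and 3 on TFIID, with a median interaction of 0.43. LYS20 (lysine), ARG4 (arginine) and HIS4 (histidine) had interactions of 2.07, 2.05 and 1.57, and GCN4 itself 1.12. Mean DMSO levels of LYS20, ARG4 and HIS4 were 1613, 547 and 287 normalized counts in Med16/Taf13-AID, against 843, 2601 and 1328 in Med16/Spt20-AID. The levels of these 3 genes thus differed between the strains before any depletion. HIS2, which encodes another histidine enzyme, leaned the other way at -1.23 ± 0.19, so members of 1 pathway stood on both sides.

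**Figure D3:**
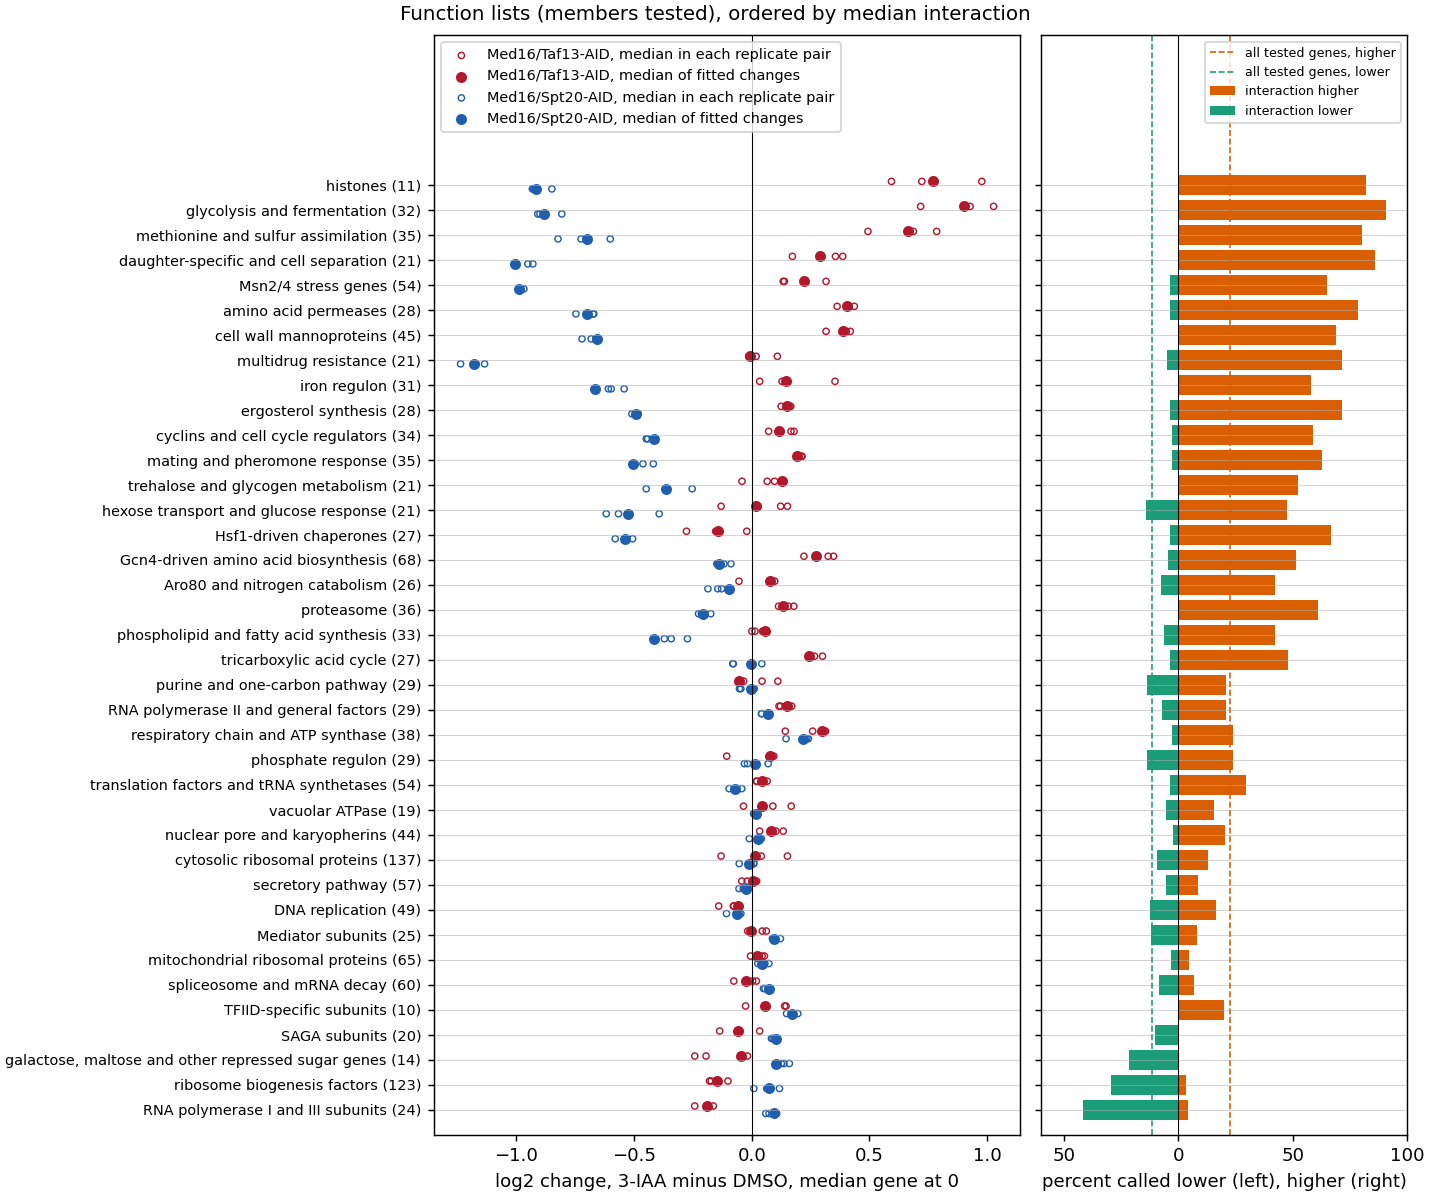
Left, for each of 38 function lists (members tested in parentheses), the median log2 change (3-IAA minus DMSO, median gene at 0) in Med16/Taf13-AID (red, upper) and Med16/Spt20-AID (blue, lower), filled for the fitted changes and open for each of 3 replicate pairs. Right, the percent of members with a lower or higher interaction, with dashed lines at the shares of all tested genes, 11.7 and 22.5%; histones and glycolysis stand at the top and RNA polymerase I and III subunits at the bottom.

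In other lists the difference came mainly from the fall in Med16/Spt20-AID, with the Taf13 arm close to the median gene. Multidrug resistance genes leaned on SAGA in 15 of 21, with a median change of -0.01 in Med16/Taf13-AID and -1.18 in Med16/Spt20-AID. Their median was -0.75 in Spt20-AID cells, which keep Med16. PDR5, the main drug efflux pump gene, had 16585, 19252 and 18223 normalized counts in Med16/Taf13-AID 3-IAA libraries, against 18303, 19002 and 17084 in Med16/Taf13-AID DMSO libraries. It had 948, 1011 and 807.5 in Med16/Spt20-AID 3-IAA libraries, against 2980.0, 3421 and 3157 in Med16/Spt20-AID DMSO libraries. Treated and control libraries overlapped in the first strain and not in the second, and the strains differed several-fold in DMSO as well. The level of PDR5 therefore differed before any depletion, a difference for which strain and library prefix cannot be told apart. SNQ2, another efflux pump gene, had a like interaction (1.73 ± 0.11, and 1.78 ± 0.12 for PDR5) from DMSO levels that overlapped between the strains. QDR2, an exporter gene, had 2.66 and RSB1, a sphingoid base transporter gene, 3.22, whereas PDR10, an efflux pump gene of the same regulon, leaned on TFIID at -0.98 ± 0.19. The activator gene PDR1 was not called (0.14 ± 0.11, adjusted p = 0.362).

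Genes of the general stress response driven by Msn2 and Msn4 leaned on SAGA in 35 of 54 and on TFIID in 2. Their median change was 0.22 in Med16/Taf13-AID, -0.99 in Med16/Spt20-AID and -0.39 in Spt20-AID cells. YGP1, which encodes a secreted glycoprotein, had 1179, 1434 and 1241 normalized counts in Med16/Taf13-AID 3-IAA libraries, against 1198, 1465 and 1325 in Med16/Taf13-AID DMSO libraries. It had 81.1, 71.0 and 82.1 in Med16/Spt20-AID 3-IAA libraries, against 732, 765 and 831 in Med16/Spt20-AID DMSO libraries. YGP1 thus overlapped its control in the first strain and fell by 3.31 on the log2 scale in the second. The stress genes YRO2, HSP12, DDR48 and CTT1 (catalase T) had interactions of 2.78, 2.67, 2.68 and 1.81. The mean DMSO level of HSP12 was 137.5 in Med16/Taf13-AID and 28.1 in Med16/Spt20-AID. In Spt20-AID cells CTT1 was not called (adjusted p = 0.125), with a change of 0.51.

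Of 27 chaperone genes under Hsf1, the heat shock factor, 11 fell in Med16/Taf13-AID and 26 fell in Med16/Spt20-AID, and 18 leaned on SAGA, against 13.2%, 23.2% and 22.5% of all tested genes. HSP104, the disaggregase gene, fell by 0.44 on the log2 scale in Med16/Taf13-AID and by 1.21 in Med16/Spt20-AID, and HSP82, an Hsp90 gene, fell by 0.51 and by 1.23. Neither fell in Spt20-AID cells, where the changes were 0.44 (called) and 0.03 (not called). SSA4, a stress-induced Hsp70 gene, was the only chaperone gene of the list to lean on TFIID, at -0.59 ± 0.14.

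Cell wall and cell cycle genes also leaned on SAGA. The counts were 31 of 45 mannoprotein and wall enzyme genes with 0 toward TFIID, and 18 of 21 daughter-specific and cell separation genes with 0 toward TFIID. EXG1 (an exo-glucanase), ECM33 and CWP1 (wall proteins) had interactions of 2.37, 1.79 and 1.82. CTS1, the chitinase that separates daughter from mother, had 1787, 2365 and 1958 normalized counts in Med16/Taf13-AID 3-IAA libraries, against 1344, 1510.0 and 1400.0 in Med16/Taf13-AID DMSO libraries. It had 346, 393.5 and 313 in Med16/Spt20-AID 3-IAA libraries, against 996, 994 and 1009 in Med16/Spt20-AID DMSO libraries. DSE4, AMN1 and PST1 had interactions of 2.08, 1.52 and 2.19. FLO11, the flocculin gene, rose in both strains, by 2.17 in Med16/Taf13-AID and by 0.97 in Med16/Spt20-AID, from DMSO levels far apart (1993, 1265 and 1403 normalized counts in Med16/Taf13-AID and 17.2, 17.9 and 16.4 in Med16/Spt20-AID). Its interaction, 1.21 ± 0.29, was not called with libraries thinned to the shallowest (adjusted p = 0.0573).

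PCL1, the cyclin gene of the Pho85 kinase in G1, had 565, 479 and 466.5 normalized counts in Med16/Taf13-AID 3-IAA libraries, against 216, 194.5 and 215 in Med16/Taf13-AID DMSO libraries. It had 46.2, 60.6 and 55.7 in Med16/Spt20-AID 3-IAA libraries, against 255, 229 and 226 in Med16/Spt20-AID DMSO libraries. The DMSO libraries of PCL1 lay close in the 2 strains without overlapping, and the treated ones lay above and below all of them (interaction 3.40 ± 0.16). The G1 cyclin genes CLN1 and CLN2 and the S-phase cyclin gene CLB6, with 46.4% of its reads on the opposite strand, had interactions of 2.26, 2.17 and 2.40, in a list where 20 of 34 leaned on SAGA and 1 on TFIID. SWI4, which activates CLN1, CLN2 and PCL1, was not called (0.32 ± 0.15, adjusted p = 0.0996), and passed with a length and GC correction (adjusted p = 0.0455). Mating genes leaned on SAGA in 22 of 35 and on TFIID in 1. Among them the a-factor gene MFA2 had an interaction of 1.90, the alpha-factor receptor gene STE2 1.57 and the pheromone-regulated gene PRM4 3.08. Reads on the opposite strand were 47.4% of all reads on PRM4.

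Iron genes leaned on SAGA in 18 of 31 with 0 toward TFIID, among them FET3 (the multicopper oxidase of iron uptake, 1.45), ARN1 (a siderophore transporter, 2.28) and HMX1 (heme oxygenase, 2.39). The iron activator gene AFT1 had 0.18 ± 0.15 (adjusted p = 0.362). Ergosterol genes leaned on SAGA in 20 of 28, with ERG3 at 2.13 and ERG28 at 2.26, and the 1 member that leaned on TFIID was ECM22, which encodes an activator of this pathway. ECM22 had 99.6, 125 and 91.9 normalized counts in Med16/Taf13-AID 3-IAA libraries, against 216, 166 and 184 in Med16/Taf13-AID DMSO libraries. It had 306, 309.6 and 259 in Med16/Spt20-AID 3-IAA libraries, against 219, 239.7 and 202 in Med16/Spt20-AID DMSO libraries. ECM22 thus fell in the first strain and rose in the second.

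Of 21 tested members of the hexose transport and glucose response list, 10 (47.6%) leaned on SAGA, 3 (14.3%) leaned on TFIID and 8 had no call. The share toward TFIID was near the 11.7% of all tested genes, while 22.5% of these leaned on SAGA. List members that leaned on SAGA included the low-affinity transporters HXT3 and HXT1 at 1.91 and 1.60 and the repressor gene MIG2 at 2.18. Those that leaned on TFIID were the glucose sensor genes SNF3 (-1.03 ± 0.19) and RGT2 (-0.84 ± 0.17) and the invertase gene SUC2 (-0.63 ± 0.18). With both strands counted, RGT2 had 0.14 (adjusted p = 0.481). Proteasome genes leaned on SAGA by a small margin, in 22 of 36 with 0 toward TFIID and a median interaction of 0.32, led by RPN4, the activator of these genes, at 1.61, with RPN9 at 0.71.

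The protein synthesis genes did not follow this pattern. Of 137 cytosolic ribosomal protein genes, 18 leaned on SAGA and 13 on TFIID, both shares near or under those of all tested genes, and their median interaction was 0.02. RPS14B and RPL10 had the largest positive values of those called, 1.30 ± 0.13 and 1.14 ± 0.11, and RPS7B was at -0.61 ± 0.13. In Spt20-AID cells, which keep Med16, the same list had a median change of -0.44, with 133 of 137 members called lower. Its median was -0.01 in Med16/Spt20-AID, where 7 were called lower. Counts of paralogous ribosomal protein genes are uncertain where the copies share sequence.

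Ribosome biogenesis factors and the subunits of RNA polymerases I and III were the lists that leaned on TFIID most often. Of 123 biogenesis factor genes, 36 leaned on TFIID and 4 on SAGA, and of 24 polymerase genes, 10 leaned on TFIID and 1 on SAGA, against 11.7% and 22.5% of all tested genes. Their median interactions were small, -0.24 and -0.27. In Spt20-AID cells, which keep Med16, both lists had negative median changes, -0.276 and -0.232. There 85 of 123 biogenesis factor genes and 12 of 24 polymerase genes were called lower, against 25% of all tested genes, and 0 were called higher. Leaning on TFIID here therefore does not mean that these genes kept their nsRNA after Spt20 loss alone. CGR1, a factor for the large subunit, had 222.5, 195 and 166 normalized counts in Med16/Taf13-AID 3-IAA libraries, against 306, 254 and 293.5 in Med16/Taf13-AID DMSO libraries. It had 166, 169 and 189.6 in Med16/Spt20-AID 3-IAA libraries, against 158, 136 and 143 in Med16/Spt20-AID DMSO libraries. In both strains the treated libraries of CGR1 lay clear of their controls, on opposite sides. NOP1, the fibrillarin gene, had -0.53 ± 0.11, while the RNA helicase gene DBP2 and the nucleolin-like gene NSR1 leaned on SAGA at 1.19 ± 0.12 and 0.96 ± 0.10. For the polymerases, RPA14 had -0.81 ± 0.21, RPC17 -0.75 ± 0.19 and RPA135 -0.41 ± 0.10, and RPB5, a subunit shared by all 3 nuclear polymerases, was the 1 that leaned on SAGA (0.40 ± 0.12).

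**Figure D4:**
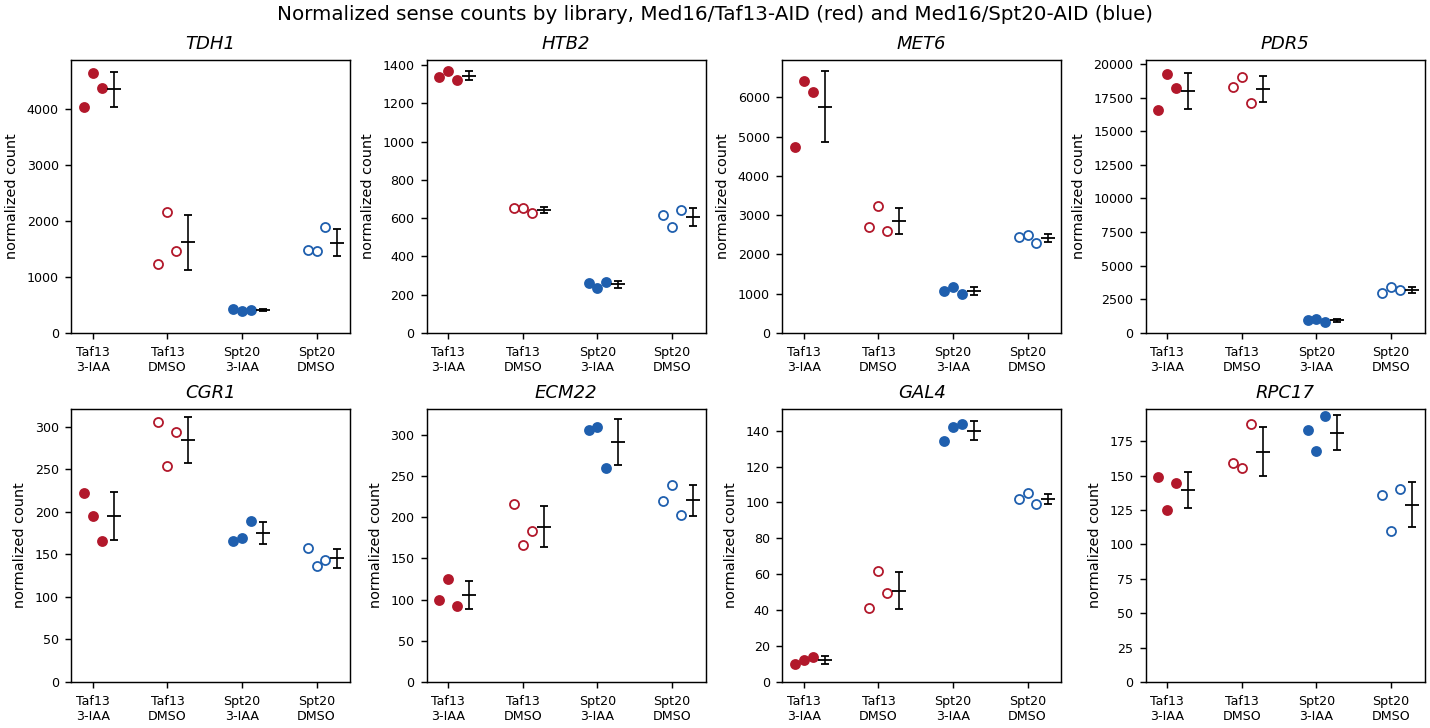
Normalized sense counts of 8 genes in each of the 12 libraries, with filled points for 3-IAA and open points for DMSO, red for Med16/Taf13-AID and blue for Med16/Spt20-AID, and bars at the mean ± SD of 3 libraries. TDH1, HTB2 and MET6 rose in the first strain and fell in the second, PDR5 fell only in the second, and CGR1, ECM22 and GAL4 fell in the first and rose in the second; for RPC17 only the rise in the second was called.

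The remaining lists stood near the median gene or between these. Trehalose and glycogen genes leaned on SAGA in 11 of 21 with 0 toward TFIID, nitrogen catabolism genes in 11 of 26 with 2 toward TFIID, phospholipid and fatty acid genes in 14 of 33 with 2, tricarboxylic acid cycle genes in 13 of 27 with 1, and translation factor and tRNA synthetase genes in 16 of 54 with 2. At or close to the background share of 22.5% toward SAGA were the purine (6 of 29), phosphate (7 of 29), respiratory chain (9 of 38), RNA polymerase II (6 of 29) and nuclear pore (9 of 44) lists, with 4, 4, 1, 2 and 1 toward TFIID. In DNA replication genes 8 of 49 leaned on SAGA and 6 on TFIID, the second near the background share of 11.7%. Shares under the background in both directions were seen for vacuolar ATPase (3 and 1 of 19), secretory pathway (5 and 3 of 57), mitochondrial ribosomal protein (3 and 2 of 65) and spliceosome and mRNA decay genes (4 and 5 of 60), where the first number leaned on SAGA and the second on TFIID. Galactose, maltose and related sugar genes had 3 of 14 toward TFIID and 0 toward SAGA.

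The genes of the transcription machinery itself changed little. SPT20, SIN4 (Med16) and TAF13 had interactions of 0.01 ± 0.13, 0.14 ± 0.11 and -0.49 ± 0.25, none of them called. Of 20 SAGA subunit genes, 2 leaned on TFIID, HFI1 (-0.69) and SPT8 (-0.70), and none leaned on SAGA, where 11.7% of all tested genes leaned on TFIID. SPT15, the TBP gene, leaned on SAGA at 0.52 ± 0.10, as 1 of 2 in a list of 10 TFIID genes with 0 toward TFIID. Among 25 Mediator genes 3 leaned on TFIID, including SRB2 (-1.37) and MED8 (-0.67), and 2 on SAGA, including NUT1 (0.41). The shares toward TFIID in these 2 lists are near that of all genes.

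At the TFIID end the rule named genes of low abundance in treated Med16/Taf13-AID cells. GAL4, the activator of galactose genes, had 9.96, 12.2 and 14.1 normalized counts in Med16/Taf13-AID 3-IAA libraries, against 41.2, 61.7 and 49.4 in Med16/Taf13-AID DMSO libraries. It had 134, 142.0 and 144 in Med16/Spt20-AID 3-IAA libraries, against 102, 105 and 99.0 in Med16/Spt20-AID DMSO libraries. Its interaction was -2.54 ± 0.36, with no overlap of treated and control libraries in either strain. IME1, the inducer of meiosis, and CAT8, the activator of gluconeogenic genes, had -2.05 ± 0.43 and -1.93 ± 0.39. WTM2, a transcription modulator gene, had -2.05 ± 0.25, and ATG17, a scaffold of autophagy, -2.14 ± 0.35. GMC1 and the RNA helicase gene DBP1 had -2.45 ± 0.33 and -1.69 ± 0.39.

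Reads on the opposite strand were common for some of these genes, 81.4% of all reads on TMN2, 56.6% on GAL4 and 34.8% on CAT8. When reads of both strands were counted, the interactions of GAL4 and CAT8 were -0.01 and -0.11 (adjusted p = 0.975 and 0.792), that of DBP1 was -0.48 (adjusted p = 0.201) and that of TMN2, a membrane protein gene, was +2.82. The leaning of these 4 genes on TFIID thus belongs to their sense reads. TMN2 had 2, 1 and 2 sense reads in Med16/Taf13-AID 3-IAA libraries, against 22, 31 and 24 in Med16/Taf13-AID DMSO libraries, a scaled ratio of 0.162 with a 95% interval of 0.0512 to 0.395. MIP6, an RNA-binding protein gene, had 3, 0 and 3, against 16, 20 and 23, a ratio of 0.254 (0.0895 to 0.586). The intervals are exact and cover counting error only. SPS4, a sporulation gene, differed in kind: it rose by 3.90 ± 0.18 on the log2 scale in Med16/Spt20-AID. It had 90.6, 90.9 and 87.3 normalized counts in 3-IAA libraries of that strain, against 5.93, 5.12 and 6.58 in DMSO libraries. Its change in Med16/Taf13-AID was 0.12 ± 0.44 (not called). SPS4 passed the count for naming only through the Med16/Spt20-AID 3-IAA libraries, since no other library of the 12 held more than 16 of its reads. In Spt20-AID cells it was not tested.

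At the SAGA end, the remaining genes chosen by the rule were the repressor gene NRG1 (3.09 ± 0.155), the uncharacterized YLR297W (2.97 ± 0.15), and TOS8, a homeodomain protein gene (2.79 ± 0.20). NRG1 and TOS8 rose in Med16/Taf13-AID, by 1.51 and 1.49, and fell in Med16/Spt20-AID, where their changes were -1.57 and -1.30. The largest value of all those the rule names, 4.21 ± 1.18, belonged to AI1, a reverse transcriptase encoded in an intron of the mitochondrial genome, which RNA polymerase II does not transcribe. AI1 had 1, 3 and 4 sense reads in Med16/Taf13-AID 3-IAA libraries, against 0, 1 and 0 in Med16/Taf13-AID DMSO libraries, and 1143 to 1800 in the libraries of Med16/Spt20-AID. The transcript was thus close to absent from one strain before treatment, and its scaled ratio in Med16/Taf13-AID was 20 with a 95% counting interval of 2.68 to 886. The adjusted p of its interaction was 0.0727 with all 18 libraries in the fit, 0.0522 without Med16/Taf13-AID 3-IAA replicate 3 and 0.0502 with a length and GC correction.

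**Figure D5:**
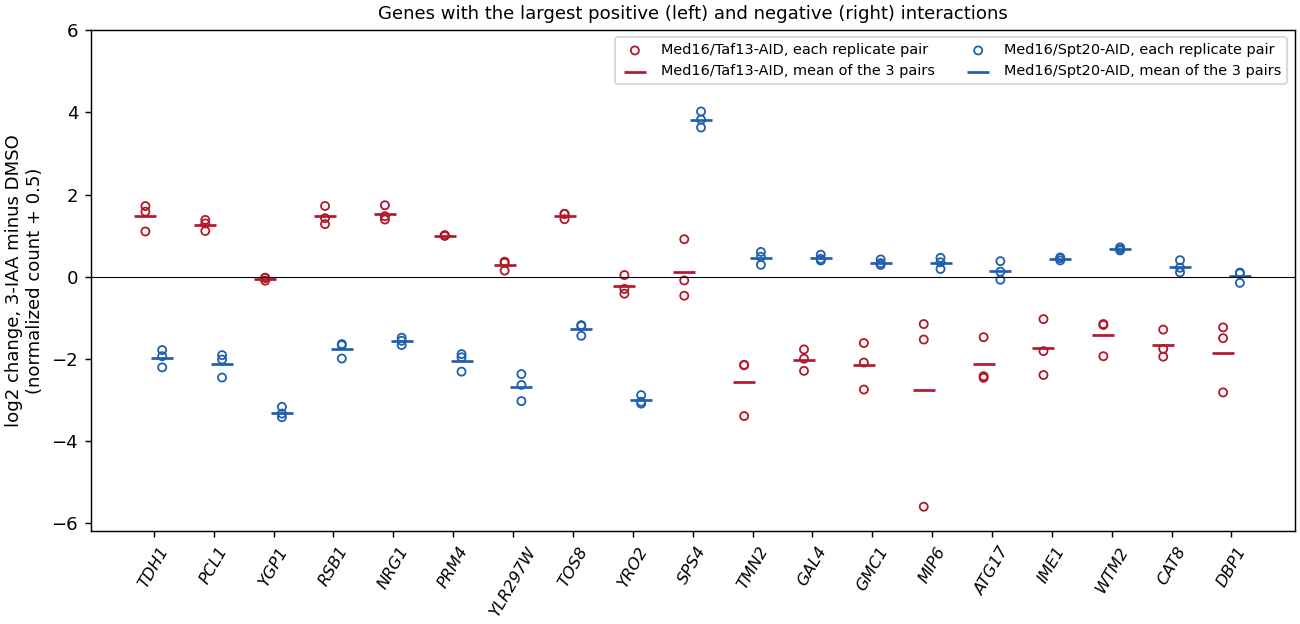
Log2 changes (3-IAA minus DMSO) in each of 3 same-numbered culture pairs of Med16/Taf13-AID (red) and Med16/Spt20-AID (blue), with the mean as a bar, for the genes with the largest positive interactions at left and the largest negative ones at right; AI1 is left out. For every gene shown the 3 red points lie apart from the 3 blue ones, which the rule for naming required, and among the genes at right MIP6 has the widest spread of red points, from a library with 0 reads.

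The separate Spt20-AID libraries share no sample with the 12 used so far. In them, 706 of 5503 genes (12.8%) were called higher and 1377 (25%) lower, and 394 were called higher without Spt20-AID 3-IAA replicate 2. Of the genes leaning on SAGA, 768 of 1240 (61.9%) fell there and 54 (4.35%) rose, with a median change of -0.43 (pair medians -0.41, -0.46 and -0.41). Of those leaning on TFIID, 92 of 651 (14.1%) fell and 129 (19.8%) rose, with a median of 0.07, and of the genes with no call, 517 of 3612 (14.3%) fell and 523 (14.5%) rose. Across 5160 well-counted genes (a mean of 50 reads or more), Pearson's r between the interaction and the Spt20-AID change was -0.64 and Spearman's rho was -0.40, given as a description since genes of 1 set of libraries share their errors. TDH1 fell by 2.95 on the log2 scale in Spt20-AID cells, PCL1 fell by 1.67 and YGP1 fell by 1.69. Of the genes named at the TFIID end, GAL4, CAT8 and MIP6 rose there, by 0.66, 0.74 and 0.65, and GMC1 and DBP1 by 0.48 each. TMN2, ATG17, IME1 and WTM2 were not called in Spt20-AID cells, and SPS4 was not tested.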

How the data were processed

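Newly synthesized RNA was measured in 18 libraries, of which the 12 of Med16/Taf13-AID and Med16/Spt20-AID enter the interaction. The deposited files hold whole-number read counts per gene that the authors made with STAR 2.6.1a on sacCer3; the sense column of the stranded counts was used as deposited. Genes needed a mean of 10 sense reads, which left 5571. Sense totals ran from 874975 to 6189719, and the shallowest libraries, those of Med16/Taf13-AID 3-IAA, limit precision most. Size factors were medians of ratios, after which the 3-IAA libraries of each strain were shifted so that its median gene did not change. Changes and their difference were tested in edgeR 4.0.16 (R 4.3.3) with quasi-likelihood tests on 4 group means and Benjamini-Hochberg adjustment over all tested genes at 0.05. Errors given with ± after a change or interaction are standard errors from that fit with 3 libraries a group. The Spt20-AID libraries had a fit of their own. Code was tested on simulated data.

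Genes named by rule were called, had a mean of 50 reads, and had all 3 pair changes (log2 of normalized count + 0.5) of one strain above those of the other; the 10 largest on each side were taken. Members of function lists are named where their list is described. The comparison, the members and the lists were chosen with earlier results of these data known. The spike-in scaling was solved for (non-negative least squares) from mean normalized counts that accompany the study, outside the deposited count files, and serves only where the spike-in is named; the authors' own fold changes and tests in the same table were not used. Cultures were split between 3-IAA and DMSO, so a shared replicate number was taken as a shared culture: in Med16/Spt20-AID, deviations of same-numbered libraries from their group means correlated at 0.454, 0.467 and 0.226. Promoters and names come from RefSeq R64. Nothing in the labels shows how independent the cultures were, so p-values measure the spread between these samples. Alternatives covered scaling, filter, strand, block, length and GC content, depth, DESeq2 1.42.0 and each library left out.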

Additional observations from a re-analysis of the deposited data

Results flagged for a closer look

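The 3-IAA response differed between Med16/Taf13-AID and Med16/Spt20-AID, by the test of the interaction itself, in 1252 genes with a higher and 653 with a lower value. Among the genes named by rule, the interactions that passed this test were 4.21 (AI1), 3.41 (TDH1), 3.40 (PCL1), 3.27 (YGP1), 3.22 (RSB1), 3.09 (NRG1), 3.08 (PRM4), 2.97 (YLR297W), 2.79 (TOS8) and 2.78 (YRO2). On the other side they were -3.77 (SPS4), -3.05 (TMN2), -2.54 (GAL4), -2.45 (GMC1), -2.30 (MIP6), -2.14 (ATG17), -2.05 (IME1), -2.05 (WTM2), -1.93 (CAT8) and -1.69 (DBP1). The value of AI1 rested on 8 sense reads in Med16/Taf13-AID 3-IAA libraries, against 1 in the DMSO libraries of that strain. Its adjusted p was 0.0727, 0.0522 and 0.0502 in the settings given earlier, and it was called in the others tested. TMN2 and MIP6 had 5 and 6 reads, against 77 and 59, in the same libraries. AI1 and all genes named at the TFIID end reached the mean count for naming only through the Med16/Spt20-AID libraries. For SPS4 it was the 3-IAA libraries of that strain alone. Of these genes WTM2 had the most reads in Med16/Taf13-AID, at most 14 in a 3-IAA library and 76 in a DMSO library.

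Reads on the opposite strand of genes, which the main comparisons do not use, made up a mean of 8.32% in Med16/Taf13-AID 3-IAA libraries, above every DMSO library of that strain.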

How the results depend on the processing

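Scaling moved the counts most. With spike-in factors and no centering, chosen after seeing the data, the interaction was higher in 35 and lower in 5249 genes, 4 genes rose and 5480 fell in Med16/Taf13-AID, 3162 rose and 632 fell in Med16/Spt20-AID, and 0 of 38 list medians stood above 0, against 28. This removes the centering by construction. Spike-in factors with centering gave 390 lower genes, and thinning all libraries to the shallowest gave 400, with fewer reads. A 2-fold minimum left 543 higher and 118 lower. Among other settings, DESeq2 gave 1231 and 586 and both strands 1220 and 582.

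The replicate block gave 1436 higher and 886 lower interactions and 1031 genes that rose in Med16/Spt20-AID; with length and GC correction it gave 1007 lower. In Med16/Taf13-AID same-numbered libraries correlated at 0.149, 0.186 and 0.0293.

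Leaving out 1 library at a time gave 1136 to 1280 higher and 493 to 711 lower interactions, 774 to 958 genes that rose and 535 to 742 that fell in Med16/Taf13-AID, 427 to 508 and 1149 to 1235 in Med16/Spt20-AID, 394 to 793 and 1118 to 1377 in Spt20-AID, and 27 to 31 lists above 0. Of 38 list medians, 16 moved by more than the spread between replicate pairs with uncentered TMM, 13 with thinning, 12 with length and GC correction, 10 with both strands and 1 to 9 with a library left out. SPT20, not called, had -0.057 with uncentered TMM, -0.026 with both strands, -0.027 with length and GC correction, -0.032 with the block as well, and -0.060 to 0.123 with a library left out. TMN2 had 2.82 and RGT2 0.135 with both strands. The cause was not tested. The rule-named genes kept their call in 473 of 480 values. They had been chosen from these same libraries for large called values, so this is partly built in. The uncentered spike-in setting was not among those values.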
